A study of Homo sapiens with 2 samples.

Results

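The annexins are a family of proteins that bind acidic phospholipids at membranes when calcium is present. Each has a conserved core of annexin repeats that carries the calcium sites and an N-terminal tail that differs between members and recruits partners, often S100 proteins. In epithelial cells and in the liver they are known from membrane traffic, exocytosis, plasma membrane repair and fibrinolysis. The 10 annexin genes described here were ANXA1, ANXA2, ANXA3, ANXA4, ANXA5, ANXA6, ANXA7, ANXA9, ANXA11 and ANXA13, out of 18417 genes with a probe set of their own. They were taken by gene symbol from the array's annotation, and each had 1 such probe set. The family was picked with its differences between the arrays known, so the values below describe these arrays and carry no test.

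Huh-7, the line profiled on the 2 expression arrays, is established and derives from a human hepatocellular carcinoma. One array held RNA of cells given the control named NC and the other cells given siRNA against DEPDC1, both taken 72 h after transfection. The labels name no clone, no siRNA sequence and no further treatment. Each group had 1 array, so no difference could be checked against replicates, and the number of arrays limits the precision.

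Values are log2 expression, and every difference is siRNA minus NC. Where a pair of values is given, the NC value comes first. A gene counted as detected when its higher value reached 4.66, the median deposited value of the 2 arrays together, which 11352 genes did. All 10 annexins were detected, ANXA1 through its siRNA value alone. DEPDC1, the siRNA target, was at 7.82 with NC and 5.15 with the siRNA, 6.37-fold lower. Hepatocyte markers were all detected (11 of 11), while none of 8 endothelial markers was. Among 444 genes with several detected probe sets, the differences within a gene spanned a median of 0.0866 and a 90th percentile of 0.413. This gauges disagreement of probe sets on the same 2 arrays, not noise that an array's probe sets share or the spread between cultures.

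Annexin transcripts differed in both directions between the arrays, and ANXA1 stood far from the other members. ANXA1 and ANXA3 were at least 2-fold higher in the siRNA array, against 1.94% of detected genes. None of the 10 was at least 2-fold lower, against 0.863% of detected genes, although ANXA2 was next to that limit. ANXA2, ANXA4 and ANXA9 were at least 1.5-fold lower, where 3.74% of detected genes were, and the 2 members at least 1.5-fold higher stood beside 6.03%. The other 5 members lay within 1.5-fold. The median over the 10 was 0.04, and over all detected genes 0.00. Since the family was chosen on this same difference, nothing is read from these shares.

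**Figure D1:**
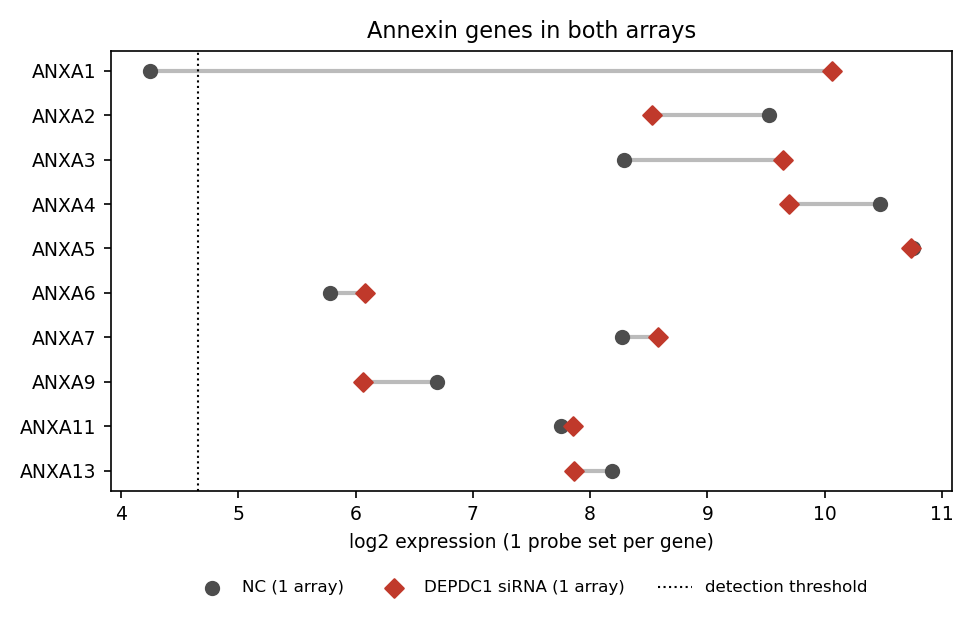
Log2 expression (x axis) of the 10 annexin genes in the NC array (grey circles) and the DEPDC1 siRNA array (red diamonds), 1 array each, with the detection threshold of 4.66 as a dotted line. ANXA1 goes from under the threshold to 10.07 and ANXA3 from 8.29 to 9.64, while ANXA2, ANXA4 and ANXA9 lie lower in the siRNA array; levels of different genes come from different probes and are not to be ranked.

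ANXA1 encodes annexin A1, a glucocorticoid-regulated protein that inhibits phospholipase A2 and acts on formyl peptide receptors. Its probe set (8155849, Entrez gene 301) read 4.24 with NC and 10.07 with the siRNA. The NC value lay under the detection threshold, so the fold is a bound against that threshold, at least 42.4-fold higher. Its difference ranked 1st of the 11352 detected genes. The 5 detected genes nearest to ANXA1 by Euclidean distance over the 2 log2 values, a measure that also reflects how bright each probe set is, were SLC1A3, EREG, EDN1, NTN4 and GPRC5A, at distances of 1.85, 2.39, 2.44, 2.53 and 2.56. Of these, SLC1A3, a glutamate transporter, was at 4.998 with NC and 8.37 with the siRNA, and NTN4, the basement membrane protein netrin 4, at 6.12 and 8.37.

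Cell type markers were read beside the annexin values. Of the 11 hepatocyte markers AFP, SERPINA1, APOB, TF and AHSG were at least 2-fold lower by measured values. These were 5 of 11, against 0.863% of detected genes by the same measure. AHSG was under the threshold with the siRNA and lower by a bound of at least 1.82-fold, so 4 of 11 passed 2-fold by bound. TTR was at least 2-fold higher, where 1.94% of detected genes were. Summed levels over a marker list are given on the linear scale and follow its brightest probes, and for hepatocyte markers they were 13112 and 8615. Of 14 fibroblast and stellate cell markers 7 were detected. Of these 3, LUM, COL1A2 and FBN1, passed 2-fold upward with the siRNA, against 1.94% of detected genes. LUM, a matrix proteoglycan, read 7.64 and 9.95, FBN1, a microfibril protein, 5.79 and 7.98, and COL1A2, a collagen chain, 5.43 and 6.499. COL1A1, COL3A1, PDGFRA and DES differed by 0.06, -0.04, 0.09 and 0.11. The other listed markers, DCN, THY1, PDGFRB, ACTA2, POSTN, COL6A3 and RGS5, were under the threshold in both arrays. The median difference of the 7 detected markers was 0.11. The summed level of the 14 was 576 with NC and 1619 with the siRNA, with LUM contributing most. Of 11 leukocyte and macrophage markers, LYZ, CD14 and NKG7 were detected, LYZ at 4.85 and 6.05, while the pan-leukocyte gene PTPRC was under the threshold in both arrays. The sum of these 11 was 282 and 337. Of 8 biliary and other epithelial markers 4 were detected, with sums of 1328 and 1516. None was past 1.5-fold, where 6.03% of detected genes were higher and 3.74% lower by that much. Sums of the 8 endothelial markers were 92.9 and 91.5. The part of any of these in the annexin values was not tested. The labels name Huh-7 cells alone as the source of the RNA. In bulk RNA, more cells expressing a gene and more RNA per cell cannot be told apart.

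ANXA3, the other annexin that was at least 2-fold higher, encodes annexin A3, first known as an anticoagulant protein of placenta. Its probe set (8095986, Entrez gene 306) read 8.29 with NC and 9.64 with the siRNA, so that it was well above the threshold in both. The difference of 1.35 (2.56-fold) ranked 104th from the highest among detected genes.

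ANXA2 encodes annexin A2, which forms a complex with S100A10 at the plasma membrane that binds plasminogen. Its probe set (7989335, Entrez gene 302) read 9.53 with NC and 8.53 with the siRNA, 1.997-fold lower, and ranked 99th from the lowest. After quantile normalization of the arrays the difference was -1.006 in place of -0.998, and ANXA2 then counted as the 1 member at least 2-fold lower. The processed pseudogenes of ANXA2 are near-identical to it, and their probe sets can take up its signal. ANXA2P2 read 9.88 and 8.99 and ANXA2P1 5.80 and 4.96, differences of -0.89 and -0.84, whereas ANXA2P3 read 4.81 and 4.55, under the threshold in the siRNA array. ANXA2 and all 3 pseudogene probe sets thus had lower values in the siRNA array, and they are not independent measurements. A further probe set annotated to both SNU13 and ANXA2 read 7.16 and 7.27, and was not used for ANXA2.

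ANXA4 encodes annexin A4, an epithelial member associated with secretory membranes. It read 10.48 with NC and 9.70 with the siRNA, a difference of -0.78 or 1.72-fold lower, the 213th lowest. ANXA9, an atypical member whose core has lost calcium-binding residues, read 6.69 and 6.06, a difference of -0.63 or 1.55-fold lower. Both lay above the threshold in both arrays.

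The remaining 5 members differed by less than 1.5-fold. ANXA5 encodes annexin A5, the phosphatidylserine-binding protein used as a reagent for dying cells, and read 10.76 with NC and 10.73 with the siRNA. This was the smallest difference of the 10, -0.02. ANXA6, the member with a duplicated core, read 5.78 and 6.08, a difference of 0.30. ANXA7 (synexin, known from membrane fusion) read 8.27 and 8.58, a difference of 0.31. ANXA7 and ANXA11 share long N-terminal tails that bind the calcium sensor ALG-2, but ANXA11 read 7.75 and 7.85, a difference of 0.10. ANXA13, an epithelial member anchored by a lipid on its tail, read 8.19 and 7.86, a difference of -0.33.

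Ordered by difference from high to low, the members were ANXA1, ANXA3, ANXA7, ANXA6, ANXA11, ANXA5, ANXA13, ANXA9, ANXA4 and ANXA2. Of the 9 steps between neighbours in this order, 2 were larger than the 90th percentile of the probe set ranges given above. These were the step of at least 4.05 from ANXA1 to ANXA3, a bound since ANXA1 was under the threshold with NC, and that of 1.05 from ANXA3 to ANXA7. The other 7 steps were between 0.0072 (ANXA7 to ANXA6) and 0.303 (ANXA13 to ANXA9), so the order among those 8 members is not resolved step by step.

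**Figure D2:**
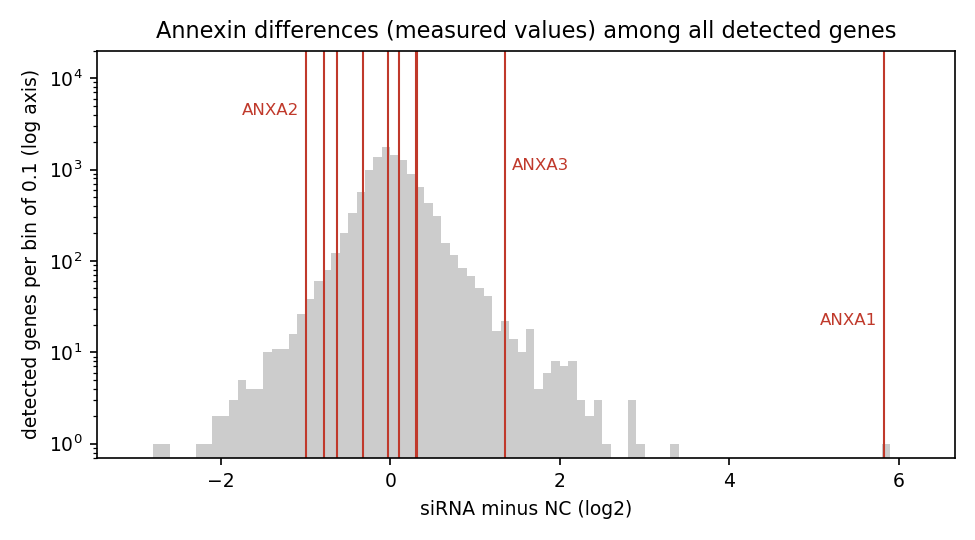
Number of detected genes (y axis, log scale) by siRNA minus NC difference (x axis, log2, bins of 0.1), with a red line at each of the 10 annexins. ANXA1, drawn at its measured 5.82 (at least 5.41 against the threshold), lies apart from all other genes, ANXA3 at 1.35 lies in the upper flank and ANXA2 at -0.998 in the lower flank of the histogram.

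Further annexin genes were on the array. ANXA10 read 2.46 with NC and 2.73 with the siRNA, under the threshold in both. ANXA8 and its near-identical copy ANXA8L1 share 3 probe sets that cannot tell them apart. On 2 of these the deposited values were identical, 6.06 and 6.36, and the third read 5.75 and 6.15, differences of 0.30 and 0.40.

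The DNA upstream of the members was compared for ANXA1, ANXA3 and ANXA2, the members with the largest differences. The RefSeq promoter table (build GRCh38.p14) matched 9 of the 10 members, with 13 start sites. The 250 bases upstream of the start are shown 5′ to 3′ on the gene's strand, with matches to 5 motifs in capitals. Both strands were searched for the motif of the TATA box (TATAAA), which places the start of many regulated genes, and for that of the CCAAT box. The GC box, a site of Sp1-type factors, was searched as GGGCGG. The AP-1 site, bound by Fos and Jun proteins, was searched as TGANTCA, and the site of TEAD factors, partners of YAP, was searched as GGAATG. The ANXA1 stretch is chr9:73151615-73151864 on the plus strand, that of ANXA3 chr4:78551520-78551769 on the plus strand and that of ANXA2 chr15:60397987-60398236 on the minus strand.
ANXA1: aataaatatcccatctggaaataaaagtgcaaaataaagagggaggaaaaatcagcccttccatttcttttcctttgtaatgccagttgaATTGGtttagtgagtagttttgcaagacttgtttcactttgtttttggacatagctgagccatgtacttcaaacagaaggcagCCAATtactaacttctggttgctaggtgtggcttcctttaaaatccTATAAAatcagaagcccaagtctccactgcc
ANXA3: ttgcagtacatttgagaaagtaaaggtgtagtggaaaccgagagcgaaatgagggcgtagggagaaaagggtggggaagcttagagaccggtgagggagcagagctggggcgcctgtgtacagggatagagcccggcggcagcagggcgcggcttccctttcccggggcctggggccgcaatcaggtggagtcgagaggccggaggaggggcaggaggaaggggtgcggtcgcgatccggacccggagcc
ANXA2: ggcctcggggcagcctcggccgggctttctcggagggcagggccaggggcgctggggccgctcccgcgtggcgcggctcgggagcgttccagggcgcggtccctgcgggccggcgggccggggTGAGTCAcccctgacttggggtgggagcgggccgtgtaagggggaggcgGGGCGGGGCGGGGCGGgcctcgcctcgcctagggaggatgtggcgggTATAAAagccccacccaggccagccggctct

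The ANXA1 stretch held 38.4% G or C bases, the lowest of the 13 member start sites, of which the other 12 ranged from 50.0% to 78.8%. Over all 35116 promoters in the table the median was 58.0%, and 10.8% were at or under the ANXA1 value. In ANXA1 a TATA box match lay 31 to 26 bases before the start and CCAAT box matches lay 77 to 73 bases before it and, on the opposite strand, 160 to 156. ANXA2 had its TATA box match at the same distance, 31 to 26 bases, in a stretch of 78.0% G or C. It also held 3 GC box matches between bases 78 and 63, which overlap by single bases, and an AP-1 match at 127 to 121. ANXA3, at 64.0% G or C, had no match to any of the 5 motifs. No start site of a member held the TEAD motif. Of all promoters, 10.7% held the TATA box, 32% the CCAAT box, 42.6% the GC box, 6.57% the AP-1 motif and 11.9% the TEAD motif in this window. A match is a description of the letters only.

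The genes next to ANXA1 and ANXA3 in chromosome order had smaller differences than these annexins. On either side of ANXA1 the nearest measured genes were ALDH1A1, a retinaldehyde dehydrogenase, at 11.05 with NC and 11.12 with the siRNA, and RORB, a nuclear receptor under the threshold in both. Among the 8 measured genes on each side of ANXA1, 11 of 16 were detected and their differences ran from -1.02 to 0.80. The 1 gene of these at least 2-fold different was CARNMT1, named after its value was seen, and it was lower. Of all detected genes, 0.863% were lower by that much. Next to ANXA3, FRAS1, an extracellular matrix protein, differed by 0.03 and BMP2K, a kinase, by -0.42. The 9 detected neighbours of ANXA3 ran from -0.42 to 0.08. The 12 detected neighbours of ANXA2 ran from -0.88 to 1.03, with 1 at least 2-fold higher, against 1.94% of detected genes.

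**Figure D3:**
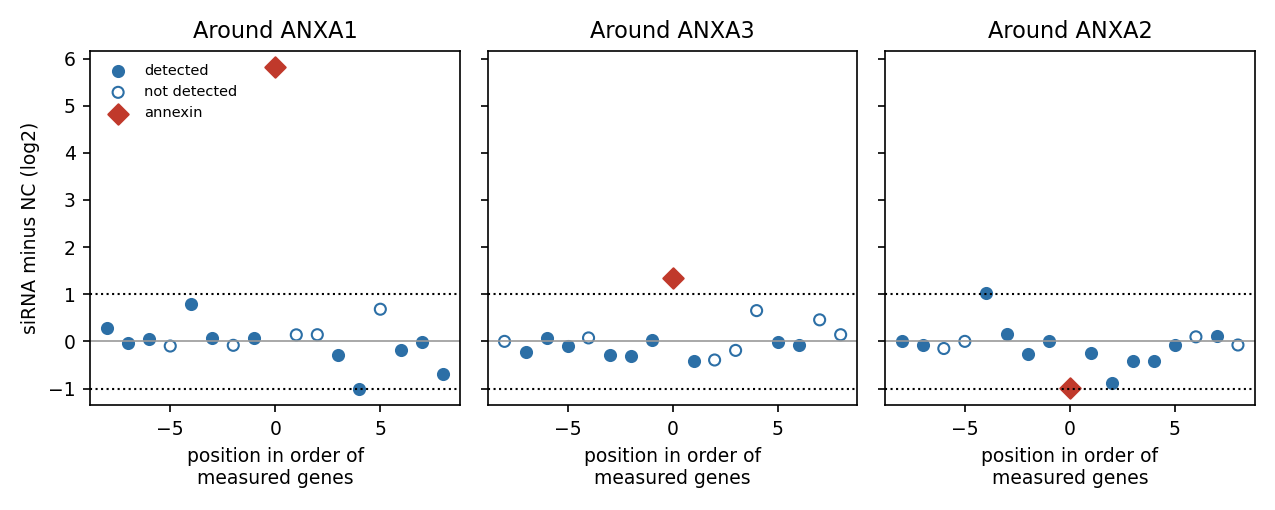
Difference (y axis, siRNA minus NC, log2) of the 8 measured genes on each side of ANXA1, ANXA3 and ANXA2 by position in gene order (x axis), with filled circles for detected genes, open circles for genes not detected and a red diamond for the annexin. ANXA1, drawn at its measured 5.82 (at least 5.41 against the threshold), and ANXA3 at 1.35 lie above all their neighbours, and ANXA2 at -0.998 lies below all of its neighbours, which reach -0.88.

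S100 proteins are small calcium sensors that pair with annexin tails. Of 19 on the array 9 were detected, 6 with higher and 3 with lower values in the siRNA array, where 49.9% of all detected genes were higher and 48.1% lower. Over all 19 without the filter, 10 were higher and 9 lower. None of the 9 passed 2-fold, where 1.94% of detected genes were higher and 0.863% lower by that much. At least 1.5-fold higher were 2 of the 9, against 6.03% of detected genes. The median of the 9 was 0.48, beside 0.00 over all detected genes. S100A11, a partner of annexin A1 and annexin A2, read 8.80 with NC and 9.66 with the siRNA, a difference of 0.86. S100P differed by 0.72 (6.48 and 7.20) and S100A6, a partner of several annexins, by 0.56 (7.01 and 7.56). S100A10, the partner of annexin A2, went the other way, with 10.83 with NC and 10.28 with the siRNA. Its difference of -0.55 was the lowest of the 9 and stood beside -0.998 for ANXA2, so both subunits of that complex had lower transcripts in the siRNA array. The S100 median depended on the detection threshold and was 0.06 over all 19 without it.

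Annexin A1 acts outside cells through formyl peptide receptors, and none of them was detected. FPR1 read 2.87 and 3.09, FPR2 2.40 and 2.30 and FPR3 2.65 in both arrays. Of the 27 genes of these receptors, of phospholipases A2 and of eicosanoid synthesis on the array, 8 were detected, with a median of 0.02. PLA2G4A, the cytosolic phospholipase A2 that releases arachidonic acid, was the 1 gene at least 2-fold higher, against 1.94% of detected genes. It read 4.56 with NC, under the threshold, and 5.94 with the siRNA, at least 2.43-fold higher. PLA2G12B, a secreted family member of liver and gut, read 7.90 and 7.08, a difference of -0.82. PLA2G15, the lysosomal enzyme, differed by 0.41 and PLAAT3 by -0.36. With detection at the 75th percentile of all probe sets, PLA2G4A dropped out and the median was -0.18.

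The plasminogen system, which the complex of annexin A2 and S100A10 engages at the cell surface, had 4 detected genes of 8 on the array. SERPINF2, the plasmin inhibitor alpha-2-antiplasmin, read 6.34 with NC and 4.82 with the siRNA, 2.87-fold lower. It was the 1 gene of the 4 past 2-fold, beside 0.863% for the same drop across the array's detected genes. With detection at the 75th percentile this count was 0. PLGRKT, a plasminogen receptor, was under the threshold with NC and at least 1.17-fold higher, while SERPINE2, a protease inhibitor, differed by 0.36 and PLAUR, the urokinase receptor, by 0.03. PLG, PLAT and PLAU, named after their values were seen, were under the threshold in both arrays, and so was the annexin A2 receptor gene ANXA2R at 3.76 and 3.36. The median of 0.20 rests on 4 genes. It was 0.13 with the PLGRKT value raised to the threshold, and it was -0.58 with the threshold taken from probe sets that list 1 gene, chosen after the data were seen.

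Annexins gather at wounds of the plasma membrane together with ferlins, calpains and the ESCRT machinery. Of 26 such genes on the array 20 were detected, 15 with higher and 4 with lower values in the siRNA array, against 49.9% and 48.1% of all detected genes. At least 2-fold higher were 2 of the 20, against 1.94% of detected genes. MYOF, the ferlin myoferlin, read 5.80 with NC and 7.45 with the siRNA, 3.13-fold higher. EHD2, a membrane-shaping ATPase of caveolae, read 6.498 and 7.501, 2.004-fold higher, and was under 2-fold after quantile normalization. CHMP2A, an ESCRT-III subunit, read 8.36 and 9.33, a difference of 0.97, and EHD1, which acts in endosome recycling, 5.08 and 5.82, a difference of 0.74. The median of the list was 0.27, against 0.00 over all detected genes, and 0.12 without the detection filter.

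Phosphatidylserine, the lipid that annexin A5 binds, is moved across the membrane by flippases and scramblases. Of 28 genes for these and for phosphatidylserine receptors and bridging proteins on the array, 18 were detected, with a median of -0.07. None was past 2-fold, where 1.94% of detected genes were higher and 0.863% lower by that much. ATP8B1, a flippase of the bile canaliculus, differed by 0.64 and ATP11B, a flippase of inner membranes, by -0.61. ANO4, an anoctamin, differed by -0.60 and MFGE8, a bridging protein, by 0.51. Like ANXA5 itself, this group as a whole was thus close to the centre of all genes.

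ANXA1 is known as a glucocorticoid-regulated gene. Of 16 genes of the glucocorticoid receptor and its response on the array, 12 were detected, with a median of -0.12. Of the 12, 4 were higher and 8 lower, where 49.9% and 48.1% of all detected genes were. None was past 2-fold, where 1.94% of detected genes were higher and 0.863% lower by that much. NR3C1, the receptor, read 7.19 with NC and 7.48 with the siRNA. TSC22D3, the glucocorticoid-induced leucine zipper, differed by 0.37 (5.14 and 5.51). SGK1, the serum- and glucocorticoid-induced kinase, differed by -0.99 (6.22 and 5.24) and CDKN1C, a cell cycle inhibitor, by -0.34. The range over the 12 was -0.99 to 0.37. The part of glucocorticoid signalling in the ANXA1 value was not tested.

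**Figure D4:**
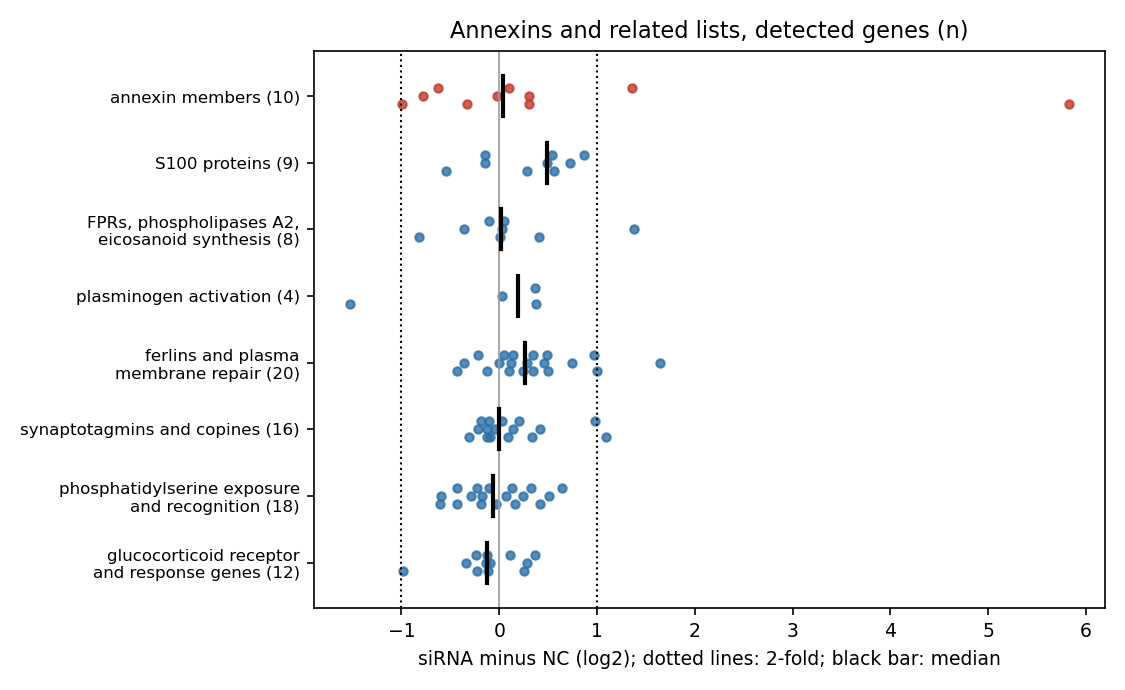
Difference (x axis, siRNA minus NC, log2) of detected genes in the annexin family (red) and in 7 related lists (blue), with black bars at the medians, dotted lines at 2-fold and the number of genes in brackets. The S100 median lies at 0.48 and that of the membrane repair genes at 0.27, the other medians lie between -0.12 and 0.20, and ANXA1, drawn at its measured 5.82 (at least 5.41 against the threshold), lies far to the right of every other gene shown.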

How the data were processed

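Total RNA of Huh-7 cells was extracted with TRIzol and labelled with biotin for Affymetrix arrays, per the labels' protocols. The submitters' processing notes list Transcriptome Analysis Console 3.0 and Affymetrix Expression Console, with no role for either. Background correction, normalization and filters are not given in the sources used here. The deposited values were taken as log2 expression from their range (1.39 to 12.7), and as already normalized between arrays, since the sorted columns differed by at most 0.0997.

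Of 33297 probe sets, 19460 list 1 gene in GEO's platform annotation, 1754 several and 12083 none. Symbols were updated through Entrez identifiers (RefSeq, GRCh38.p14), which matched 19429. Per gene the probe set with the highest mean was used. Differences, counts at 2-fold and 1.5-fold and list medians were computed with Python 3.11.15, pandas 2.3.3 and numpy 2.4.6. No test was possible with 1 array per group. The gene choice and fold counts were tried on simulated data with differences planted only in genes well above the detection threshold. That trial does not cover dim genes. The members, lists and motifs were chosen with earlier results of these data known. Named genes were the annexins, DEPDC1, the 5 genes nearest to ANXA1, adjacent genes of the members past 2-fold, up to 4 detected genes of each list with the largest absolute difference, and 9 partners or receptors, of which PDCD6 (ALG-2) is not analysed here. Genes beyond this rule are marked as such in the text, apart from the markers. Alternatives covered the probe set choice, 2 scalings, the detection threshold and values raised to it.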

Additional observations from a re-analysis of the deposited data

How the results depend on the processing

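No paired analysis was possible because each group had 1 array and the groups share a single replicate number, and for the same reason no replicate could be left out. Of 79 alternative values of single annexins, 78 stayed within 0.0866 of the reported difference, but most of them could not differ from it. Each member had 1 probe set, the median difference of detected genes was 0.00, and detection settings only change which genes are kept. Quantile normalization could change a member's value, and moved none by more than 0.0378. Raising values to the threshold could change ANXA1 alone, which was at 5.41 when its NC value was set to the detection threshold. ANXA6 was left out at the 75th percentile. The number of annexins at least 2-fold higher was 2 under all 8 alternatives, several of which could not change it. The number at least 2-fold lower was 1 after quantile normalization and 0 otherwise. The same normalization left 1 membrane repair gene at least 2-fold higher. With detection at the 25th percentile, the medians were 0.17 for S100 proteins, -0.067 for plasminogen activation and 0.12 for membrane repair. Without the filter they were 0.061, -0.067 and 0.12. With detection at the 75th percentile they were 0.64 for S100 proteins, -0.18 for the phospholipase and eicosanoid list, 0.36 for plasminogen activation, 0.20 for synaptotagmins and copines, 0.064 for phosphatidylserine genes and 0.11 for glucocorticoid genes. That threshold also left 0 genes at least 2-fold higher in the phospholipase and eicosanoid list and 0 at least 2-fold lower in plasminogen activation. With the threshold taken from probe sets that list 1 gene, chosen after the data were seen, the medians were -0.58 for plasminogen activation, 0.20 for synaptotagmins and copines and 0.019 for phosphatidylserine genes. These alternatives change which genes are kept; no other cause was tested. Signal near background can compress differences of dim genes, which was not measured here.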

Other observations

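Synaptotagmins, synaptotagmin-like proteins and copines bind phospholipids through C2 domains, the other large class of calcium-dependent membrane binders. Of 36 such genes on the array 16 were detected, with a median of -0.01. In the siRNA array 8 were higher and 8 lower, where 49.9% and 48.1% of all detected genes were. SYTL5, a Rab27 effector, read 6.54 with NC and 7.64 with the siRNA, 2.14-fold higher. It was the 1 gene past 2-fold, where 1.94% of detected genes were at least 2-fold higher. SYT1, the calcium sensor of synaptic vesicle release, read 5.50 and 6.49, a difference of 0.98. ESYT1, a tether between the endoplasmic reticulum and the plasma membrane, differed by 0.42 and CPNE8, a copine, by 0.34. None of the 16 was at least 1.5-fold lower, against 3.74% of detected genes, and the lowest difference was -0.31.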
